A study of Mus musculus with 18 samples.

Results

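The data compare hindlimb buds of Pitx1 null mouse embryos with those of wild type embryos at e11.0, that is at an embryonic age of 11 days. They hold 6 of the 18 libraries of the series, 3 from Pitx1 null and 3 from Pitx1 wild type hindlimbs, both of strain BALB/c per the labels, and every one of the 14027 genes listed in the table of that comparison was tested. The members were chosen by sample labels and not by measured values. The design text of the series states the aim for this comparison, to find which parts of the hindlimb gene network Pitx1 directs. The other libraries are Pitx1 null and wild type hindlimbs at e11.5, CD1 wild type hindlimbs at e11.0 and CD1 wild type forelimbs at e10.5, with 3 each. The null allele is constitutive as far as the labels say, with no Cre line or treatment named, and which bases it lacks is not given in them. The labels name the tissue as hindlimb and do not say how many embryos were pooled or that replicates came from separate litters. The p-values therefore speak only of the spread among these libraries, which the labels do not tie to independent embryos or litters. Sex marker levels, given below, differ among the 3 libraries of each genotype.

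Pitx1 is a homeodomain transcription factor that is made in the hindlimb bud and not in the forelimb bud, and mouse embryos without it have short, partly forelimb-like hindlimb bones. Tbx4, a T-box factor also found mainly in the hindlimb, is a known target, and Isl1 acts upstream of hindlimb bud outgrowth. At this stage the bud is a mass of mesenchyme under ectoderm, patterned by Fgf from the apical ridge, Shh from the posterior margin and Wnt from the ectoderm, while cartilage condensations begin to form and muscle precursors and vessels grow in from the trunk.

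Levels are CPM, the authors' read counts scaled to a total of 1000000 over listed genes, and values are given for replicates 1, 2 and 3 in that order. Replicates 1 and 2 of both genotypes come from run3982 and hold 17.4 to 20.3 M reads (1 M is 1000000 reads) on the listed genes, and replicate 3 of both comes from run3412 and holds 42.9 and 44.2 M. The first principal component held 62.8% of the variance and set replicate 3 apart, which differs from the others in run, depth and sex markers, and the second held 22.9% and set null apart from wild type. The sex markers follow the replicate number too: Xist, which is made from the inactive X, stood at 5.24, 373 and 697 CPM in wild type and 3.03, 273 and 673 CPM in null hindlimbs, and Uty on the Y chromosome at 109.7, 52.1 and 0.117 CPM in wild type and 111, 72.1 and 0.453 CPM in null hindlimbs. Replicate 1 of both genotypes was therefore low in Xist and replicate 3 of both was low in Uty, so the genotypes had like sex marker levels within each replicate number. Of 6 limb bud mesenchyme markers, all were listed, while of 12 markers of trunk, neural tube and gut only Meox1 and Tcf15 were.

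By limma, with a term for run, 1843 genes or 13.1% of those tested differed between null and wild type at an adjusted p under 0.05, 664 higher (4.73%) and 1179 lower (8.41%) in null hindlimbs. Most differences were small. The median absolute log2 fold change of the 1843 was 0.37, 1470 lay under 0.5, and 40 (0.285%) reached 1, 12 higher (0.0855%) and 28 lower (0.2%). Of all genes, 2598 (18.5%) had null libraries that all lay on one side of the wild type ones, and 1121 of these were among the 1843. With replicates 1 and 2 taken apart from replicate 3, 1842 of the 1843 genes had the same sign in both runs, beside 75.1% of all genes, and the calls were made from the same libraries.

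Which direction prevailed depended on how the libraries were scaled. Over all genes the log2 fold change had a median of -0.07 on the CPM as deposited, so the typical gene read slightly lower in null libraries. After trimmed-mean scaling 1067 genes were higher (7.61%) and 520 lower (3.71%), after median-ratio scaling 1326 (9.45%) and 403 (2.87%), and after upper-quartile scaling 984 (7.02%) and 567 (4.04%). The share of calls that were higher thus moved from 36.0% to 67.2%, 76.7% and 63.4%. All 664 higher calls and 403 of the 1179 lower calls were made again under each of the 3 scalings, and 642 of these 1067 (4.58% of genes tested) also had groups that did not overlap. The other lower calls are therefore relative to the deposited CPM, and "held under scaling" below means a call made under all 3. Each scaling raised null libraries relative to wild type ones, and the median log2 fold change went to -0.0131, 0.0138 and -0.0157. Rises were thus near certain to be kept, so the scalings are a check on falls and not on rises, here and below.

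**Figure D1:**
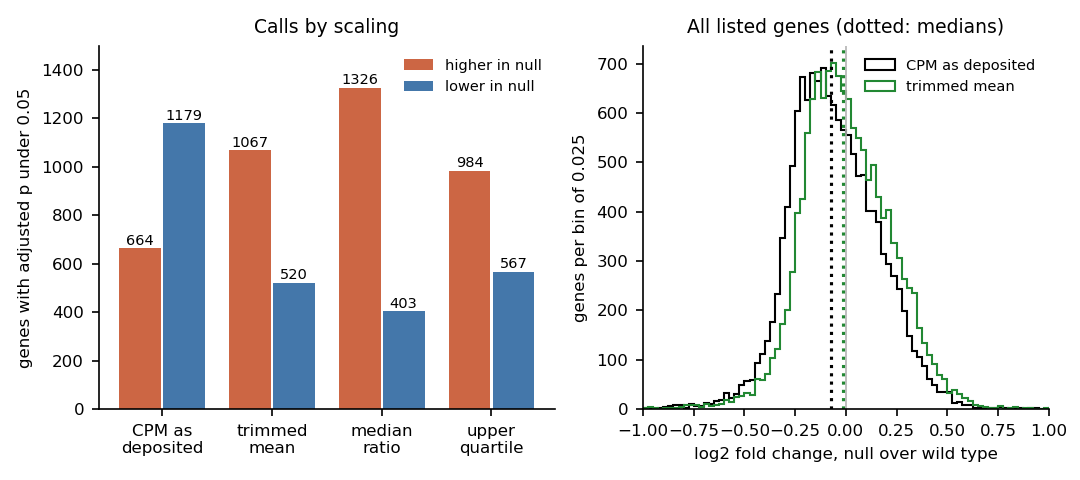
Left, bars give the number of genes with an adjusted p under 0.05, higher or lower in null hindlimbs, for the deposited CPM and after 3 scalings; right, the distribution over all 14027 genes of the log2 fold change (null over wild type) for the deposited CPM and after trimmed-mean scaling, with dotted medians at -0.07 and -0.01. Lower calls outnumber higher ones, 1179 to 664, only on the deposited CPM among these 4.

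The number of calls also rested on single libraries. Leaving out wild type replicates 1, 2 and 3 and null replicates 1, 2 and 3 in turn, an order kept below for all such counts, gave 116, 5273, 193, 1032, 232 and 196 calls. Over all 14027 genes, 39, 1748, 72, 310, 80 and 71 of these were higher and 77, 3525, 121, 722, 152 and 125 lower. Counts for gene groups below stand beside these, and on deposited CPM beside 4.73% higher and 8.41% lower of all genes. Of the 1843 genes, 104 were called in all 6 fits with 1 library left out, 37 higher and 67 lower, and they are called "lasting" here. The run term absorbs a replicate 3 library left without its counterpart. The fits without wild type or null replicate 3 thus both compare replicates 1 and 2 alone, which gave 199 calls. These 2 fits are nearly 1 check, and losses under both, here and below, are not separate. With the replicate number as a block, since same-numbered libraries deviate together, 3442 genes (24.5%) were called, 1056 higher (7.53%) and 2386 lower (17%), and the authors' deposited table, from edgeR on counts, called 2895 (20.6%), 1707 higher (12.2%) and 1188 lower (8.47%).

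Pitx1 itself (ENSMUSG00000021506, chr13:55825051-55836192, GRCm38, minus strand) had the largest fall of any listed gene on the log2(CPM + 1) scale, while by the ratio of mean CPM some genes, among them AK157302, Gm28760, Gm2962 and Zfp429, fell further. It stood at 136, 114 and 122 CPM in wild type and 22.9, 19.3 and 21.3 CPM in null hindlimbs (-2.49 ± 0.09, adjusted p = 3.12e-07). The groups lay far apart, and reads were still counted on the gene in each null library. Gm28760, a noncoding gene that overlaps the start of Pitx1 on the same strand (chr13:55835360-55836095), fell from 1.44, 1.5 and 1.19 CPM to 0.106, 0.0986 and 0.0453 CPM (-1.13 ± 0.13, adjusted p = 0.00116), and how reads were assigned between the overlapping genes is not given in the sources used here. Both falls are lasting calls.

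Tbx4 (chr11:85886422-85916097) stood at 77.5, 57.6 and 63 CPM in wild type and 30.4, 31.2 and 23.4 CPM in null hindlimbs. The groups did not overlap, and the fall (-1.19 ± 0.11, adjusted p = 0.000295) is a lasting call. Isl1 (chr13:116298281-116309689) stood at 26, 27.5 and 23.3 CPM in wild type and 38.7, 46.6 and 27.2 CPM in null hindlimbs. The null value of replicate 3, the lowest of its group, fell below the highest wild type value, and Isl1 rose (0.50 ± 0.11, adjusted p = 0.0203), with adjusted p of 0.131 without wild type replicate 1 and 0.1 without null replicate 2. Hoxc10, one of the Hox genes switched on in the hindlimb field, stood at 36.9, 27 and 33.9 CPM in wild type and 27.1, 24.7 and 19.8 CPM in null hindlimbs. It passed the test on deposited CPM (-0.43 ± 0.13, adjusted p = 0.0494) and under none of the 3 scalings. Without single libraries its adjusted p was 0.226 without wild type replicate 1, 0.276 without wild type replicate 3, 0.138 without null replicate 2 and 0.273 without null replicate 3. In all, 2 of the 7 listed hindlimb identity genes rose and 2 fell. Hoxc9 and Hoxc11 failed the test (-0.18 ± 0.11, adjusted p = 0.256, and -0.36 ± 0.12, adjusted p = 0.0592), although Hoxc11 was called under the block (adjusted p = 0.0223).

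Homeodomain proteins of the Pitx class bind DNA with the core TAATCC. RefSeq promoter windows of the 250 bases before each start (GRCm38.p6) were searched for TAATCC on either strand, a search chosen after the expression values were seen. Of 32851 windows of that length in the table, 6.25% held the core, and of the windows of listed genes 4.86% did. The share was 5.29% for genes called higher and 4.64% for genes called lower, both close to that of listed genes. Among Pitx1 and the 24 genes of largest change, 16 had a window and 0 of the 16 held the core. Of the 110 genes chosen for naming, 74 had a window and 5 held it. The windows below are shown because Tbx4 fell most clearly among the hindlimb genes, while Tcf7l2, a Wnt effector that fell, and Sp8, a ridge and ectoderm factor that rose, are named genes with the core and no annotated exon in the window. They are read 5′ to 3′ on the gene's strand, here the plus strand, and capitals mark the core or its reverse complement. The Tbx4 and Tcf7l2 windows precede a start inside the annotated gene.
Tbx4 chr11:85896515-85896764: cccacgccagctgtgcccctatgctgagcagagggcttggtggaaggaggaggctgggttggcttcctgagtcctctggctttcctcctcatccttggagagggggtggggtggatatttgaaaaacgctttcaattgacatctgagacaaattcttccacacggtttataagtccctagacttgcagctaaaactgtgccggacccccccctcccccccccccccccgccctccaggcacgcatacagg
Tcf7l2 chr19:55895071-55895320: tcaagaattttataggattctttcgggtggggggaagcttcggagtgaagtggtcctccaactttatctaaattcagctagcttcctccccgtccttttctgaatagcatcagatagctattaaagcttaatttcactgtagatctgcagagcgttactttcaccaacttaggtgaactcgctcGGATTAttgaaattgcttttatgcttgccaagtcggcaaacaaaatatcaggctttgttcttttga
Sp8 chr12:118846079-118846328: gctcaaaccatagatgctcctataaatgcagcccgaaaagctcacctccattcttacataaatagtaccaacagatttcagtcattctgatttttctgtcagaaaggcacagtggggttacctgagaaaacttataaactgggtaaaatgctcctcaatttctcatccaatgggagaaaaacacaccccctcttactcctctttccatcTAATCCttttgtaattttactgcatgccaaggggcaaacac
The core lies 66 bases before the start in Tcf7l2 and 41 bases before it in Sp8, and these letters do not occur in the Tbx4 window.

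Among the other genes of largest fall, several are regulators or matrix genes of the limb bud. Tbx15 (chr3:99240381-99354259), a T-box factor needed for limb and girdle skeleton, stood at 138, 121 and 66.7 CPM in wild type and 51.8, 51.5 and 29.3 CPM in null hindlimbs (-1.26 ± 0.08, adjusted p = 2.44e-05). Sned1, an extracellular matrix glycoprotein, stood at 11.6, 10.99 and 13.4 CPM in wild type and 3.88, 3.35 and 3.67 CPM in null hindlimbs (-1.48 ± 0.11, adjusted p = 7.25e-05). Asb4 (chr6:5383386-5433022), a subunit of ubiquitin ligases, stood at 384, 357 and 205 CPM in wild type and 153, 153 and 75.8 CPM in null hindlimbs (-1.32 ± 0.07, adjusted p = 5.84e-06). In each of these the null libraries lay below the wild type ones, and for Tbx15 and Asb4 replicate 3 was the lowest library of both genotypes. Nrk, a protein kinase on the X chromosome, fell from 78.4, 69.3 and 58.3 CPM to 23.5, 30.8 and 26.7 CPM (-1.31 ± 0.11, adjusted p = 0.000176). It was lower in the null within each run. Lower levels were also read for E130114P18Rik (-1.67 ± 0.15), the transporter gene Abca8b (-1.28 ± 0.11), and Evx1os (-1.28 ± 0.15), an antisense gene of Evx1. These falls are all lasting calls.

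Some of the largest falls were in genes with close copies or on the chromosome of Pitx1. AK157302 on chromosome 13, with 5.6, 5.35 and 3.66 CPM in wild type, was at 0, 0.0493 and 0.272 CPM in null hindlimbs (-2.40 ± 0.16). Zfp429, a zinc finger gene of a family with near-identical members, fell from 5.35, 5.52 and 6.86 CPM to 0.372, 0.838 and 0.725 CPM (-2.08 ± 0.14). Kif27, a kinesin linked to cilia, fell from 7.76, 6.9 and 6.88 CPM to 2.82, 2.12 and 2.49 CPM (-1.24 ± 0.12, adjusted p = 0.000391). These 3 lie 34.3, 11.6 and 2.49 Mb from Pitx1 on chromosome 13. Of 130 listed genes within 10 Mb of Pitx1, 25 (19.2%) were called, beside 8.74% at 10 to 20 Mb, 8.84% at 20 to 40 Mb and 14.5% farther away, and the labels do not give the strain in which the null allele was made. Mfap1a, a splicing factor gene with a near-identical copy, Mfap1b, fell by 1.26 ± 0.25 in log2 units (adjusted p = 0.0159, and 0.124 without wild type replicate 1). Because a listed gene had to exceed 0.5 CPM in at least 3 libraries, a gene near 0 in 1 genotype could only be listed through the other.

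The genes of largest rise were fewer and mostly of low level. Col14a1, a collagen that binds to fibrils of connective tissue, stood at 2.67, 2.65 and 4.83 CPM in wild type and 9.88, 14.2 and 10.7 CPM in null hindlimbs (1.54 ± 0.17, adjusted p = 0.00116). Gm35082, a noncoding gene, rose from 0.0514, 0 and 0.117 CPM to 1.75, 2.86 and 2.63 CPM (1.68 ± 0.15). Epha3, an ephrin receptor, rose from 19.7, 25.4 and 30.4 CPM to 41.5, 68.8 and 45.7 CPM (1.002 ± 0.18, adjusted p = 0.0118). The null libraries lay above the wild type ones in each case. Epha3 was not called without wild type replicate 1 (adjusted p = 0.101), and Col14a1 and Gm35082 are lasting calls. Rxfp1, a relaxin receptor, rose from 11, 9.78 and 11.6 CPM to 21.6, 22.5 and 23.7 CPM (1.0 ± 0.09, adjusted p = 0.000262) with little spread within either genotype. Calb2, a calcium-binding protein, rose from 1.54, 2.07 and 3.03 CPM to 3.82, 5.67 and 7.38 CPM (1.03 ± 0.14), and Corin, a protease that activates natriuretic peptides, from 0.308, 0.23 and 0.513 CPM to 1.43, 2.07 and 2.15 CPM (1.09 ± 0.14). These 3 are lasting calls, as are Gm20559, Gm13212 and E330013P04Rik, with rises of 1.02 to 1.05. Sphkap (1.104 ± 0.20) and B930036N10Rik (1.099 ± 0.20) were not called without wild type replicate 1, where their adjusted p-values were 0.0876 and 0.0997.

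**Figure D2:**
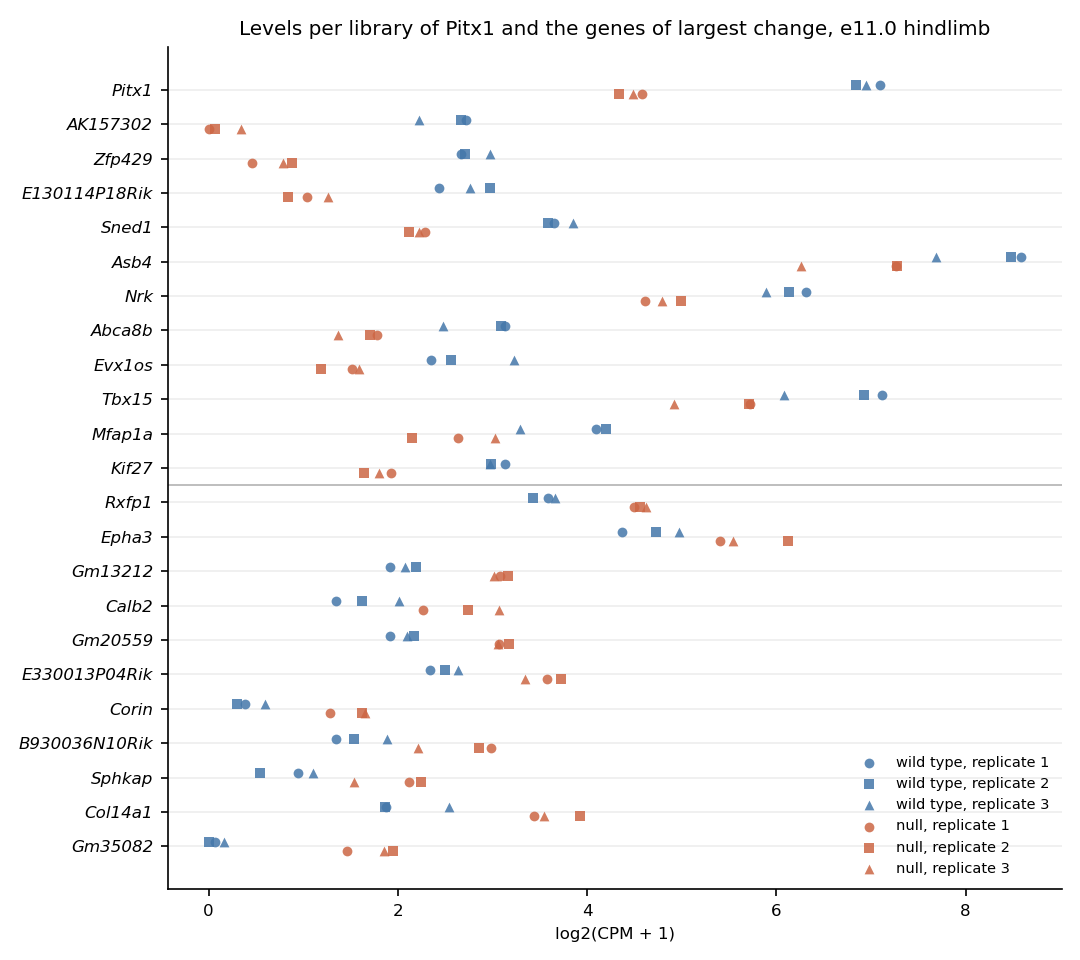
Each row is a gene, with log2(CPM + 1) on the horizontal axis; blue points are the 3 wild type and orange points the 3 null libraries, with a marker shape for each replicate, and the grey line parts Pitx1 and 11 of the 12 largest falls (above) from 11 of the 12 largest rises (below). The genotypes do not overlap in any row, which the rule for choosing the 24 genes required.

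The CD1 libraries tell which of these genes differ between limb types, although there the forelimb was at e10.5 and the hindlimb at e11.0, so limb type and age cannot be told apart. There, 795 of 13540 genes (5.87%) were called by the same model, 326 higher (2.41%) and 469 lower (3.46%) in hindlimb. Of 27 genes at least 1 log2 unit higher in CD1 hindlimb, 13 (48.1%) were lower and 6 (22.2%) higher in Pitx1 null hindlimbs. Among all 13247 genes that both comparisons list, 8.83% were lower and 4.78% higher. The 13 hindlimb genes that fell were Pitx1, Tbx4, Hoxc10, Hoxa13, Hottip, Evx1, Evx1os, Gm28760, 9530018H14Rik, E130114P18Rik, A2m, Myo18b and Ctsh, of which Hoxc10 and Evx1 were not held under scaling, and Pitx1, Tbx4, Gm28760, Evx1os and E130114P18Rik are lasting calls. The 13 are not independent, as they include Pitx1 itself and Gm28760, which overlaps it. They also include overlapping Evx1 and Evx1os, and Hoxa13 with its neighbour 9530018H14Rik. A2m was called in 3, Myo18b in 4 and Ctsh in 2 of the 6 fits with 1 library left out. The 6 that rose instead were Isl1, Rxfp1, Aldh1a2, Wnt2, Pdlim3 and Hbb-bs, away from the CD1 forelimb level, and Hbb-bs was called in 2 of the 6 fits. Rxfp1 was higher in CD1 hindlimb by 2.51 ± 0.17 and Pdlim3, a muscle and actin-associated protein, by 1.16 ± 0.13. Both are lasting calls, and Pdlim3 rose from 4.22, 4.37 and 5.27 CPM to 8.5, 8.68 and 9.74 CPM in the null comparison (0.83 ± 0.10, adjusted p = 0.0017).

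Of 34 genes at least 1 log2 unit higher in CD1 forelimb, 7 (20.6%) rose in null hindlimbs, and 3 (8.82%) fell. Among the 7 were Epha3, Hoxb2, Hoxb4, Alx1 and the glutamate receptor gene Gria2, and the 3 were Runx2, Sim2 and the Wnt agonist gene Rspo4. Hoxb4 was called in 1 of the 6 fits, and Gria2, Sim2 and Runx2 in 2 each. Hoxb2 rose from 4.88, 5.58 and 7.79 CPM to 9.61, 10.8 and 12.6 CPM (0.77 ± 0.11, adjusted p = 0.00386), a lasting call with no overlap. Over all 318 genes higher in CD1 hindlimb at any size, 24.5% were lower and 4.09% higher in the null, and over the 436 higher in CD1 forelimb 16.7% were lower and 5.05% higher. The share of falls was thus above 8.83% in both directions of the CD1 difference. The e11.0 table does not list Tbx5, the forelimb T-box factor.

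**Figure D3:**
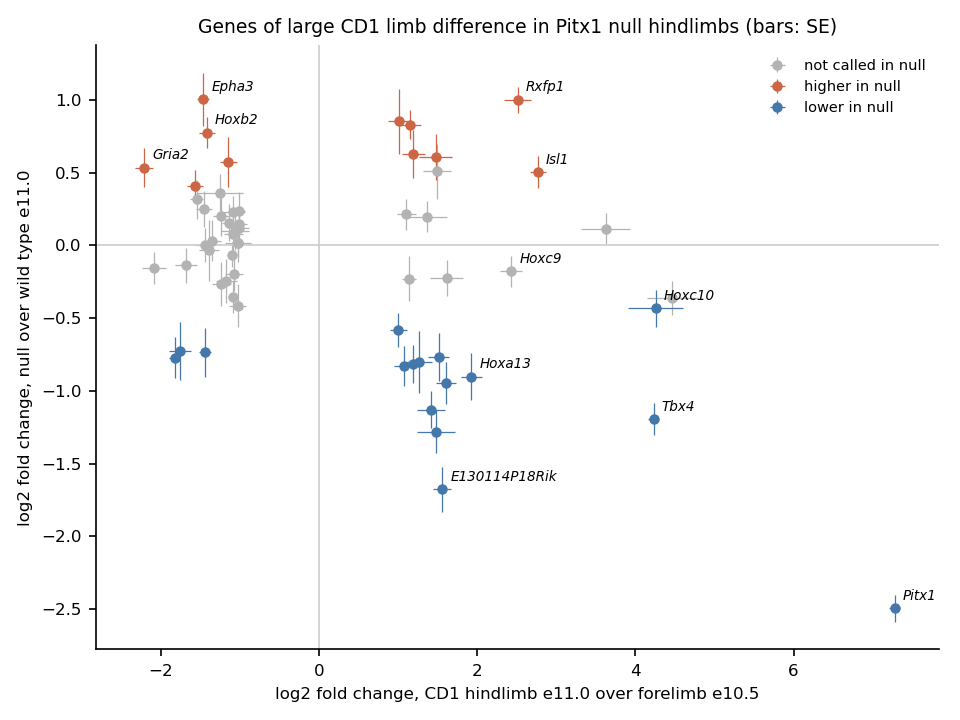
Each point is 1 of 59 of the 61 genes that differ by at least 1 log2 unit between CD1 limb types, with the CD1 log2 fold change (hindlimb over forelimb) on the horizontal and the null over wild type log2 fold change at e11.0 on the vertical axis, and bars of 1 SE on both. Pitx1 and Tbx4 lie at the lower right, Isl1 and Rxfp1 at the upper right, and Epha3 and Hoxb2 at the upper left.

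The falls included neighbouring genes at the 5′ end of the HoxA cluster on chromosome 6, a region that patterns the hand and foot plate. Hoxa13 (chr6:52257694-52260880) stood at 25, 27.6 and 27.1 CPM in wild type and 19, 14.7 and 9.24 CPM in null hindlimbs (-0.90 ± 0.16, adjusted p = 0.0103). Hottip (chr6:52262775-52267603), a noncoding RNA made beside it, stood at 2.01, 2.76 and 4.6 CPM in wild type and 1.59, 0.887 and 1.63 CPM in null hindlimbs (-0.77 ± 0.17, adjusted p = 0.0215). Evx1 (chr6:52313498-52318378) stood at 3.29, 4.14 and 7.21 CPM in wild type and 3.13, 1.92 and 1.83 CPM in null hindlimbs (-0.80 ± 0.22, adjusted p = 0.0389). The null values of Hoxa13 all lay below the wild type ones, as did those of Hottip and Evx1, with the lowest Hottip library being null replicate 2. 9530018H14Rik (chr6:52256218-52257460) fell by 0.95 ± 0.14 in log2 units (adjusted p = 0.00536). It lies on the same strand as Hoxa13, just past its 3′ end, so it cannot be told apart from Hoxa13 transcripts that run past the gene. The other posterior genes of the HoxA and HoxD clusters did not pass the test, among them Hoxa9 (-0.12 ± 0.10), Hoxa10 (-0.13 ± 0.07), Hoxa11 (0.19 ± 0.07) and Hoxd13 (0.04 ± 0.13). Thus 1 of 10 fell, near the 8.41% of all genes. Under trimmed-mean, median-ratio and upper-quartile scaling 1, 1 and 1 of the 10 fell, and 0, 1 and 1 rose. With the replicate number as a block 2 fell and 0 rose. The adjusted p of Hoxa13 was 0.0506 without wild type replicate 1, 0.0613 without wild type replicate 3 and 0.0568 without null replicate 3, and Hottip was called in 2, Evx1 in 2 and 9530018H14Rik in 4 of the 6 fits with 1 library left out.

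Of 20 limb mesenchyme factors 10 fell and 0 rose, with a median log2 fold change of -0.40 beside -0.07 for all genes. Under trimmed-mean, median-ratio and upper-quartile scaling 7, 7 and 9 fell, and with 1 library left out 3, 14, 5, 10, 6 and 5. Tbx18 (chr9:87702800-87731260), a T-box factor of embryonic mesenchyme, stood at 62.1, 61.4 and 35.9 CPM in wild type and 29.2, 27.5 and 18.5 CPM in null hindlimbs (-1.04 ± 0.08, adjusted p = 8.37e-05). Lhx9, a LIM homeobox gene of limb mesenchyme, stood at 177, 172 and 104 CPM in wild type and 94.5, 92 and 59.7 CPM in null hindlimbs (-0.86 ± 0.07, adjusted p = 8.37e-05). Both are lasting calls without overlap, like Tbx15. Lmx1b, which specifies dorsal identity, fell from 39.9, 31.6 and 47.4 CPM to 25.7, 20.3 and 23.6 CPM (-0.74 ± 0.12, adjusted p = 0.00825). Its antisense neighbour C130021I20Rik fell alongside (-0.82 ± 0.10, adjusted p = 0.00175). Lmx1b was not called in 3 fits, with adjusted p of 0.0831 without wild type replicate 1, 0.0706 without wild type replicate 3 and 0.0699 without null replicate 3. Prrx1, the general marker of limb mesenchyme, was lower by less, from 633, 630.3 and 416 CPM to 460.4, 495 and 315 CPM (-0.40 ± 0.06, adjusted p = 0.00714, and 0.0503 without wild type replicate 1), and its groups overlapped between runs. Twist1 (-0.05 ± 0.08), Msx2 (-0.13 ± 0.11), Tbx2 (0.16 ± 0.13) and Tbx3 (0.16 ± 0.10) did not pass. In bulk limb tissue fewer cells of a type and less RNA per cell cannot be told apart, here and in each group below.

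In the anterior and girdle list 3 of 5 genes rose and 0 fell, also under each scaling, and 1, 2, 3, 2, 1 and 3 rose with 1 library left out. Emx2, a homeobox gene needed for the shoulder blade and ilium, stood at 15, 14.3 and 26.1 CPM in wild type and 25.9, 26.5 and 37.8 CPM in null hindlimbs. Within each run every null value lay above every wild type one, although the groups overlapped across runs, and the rise (0.70 ± 0.09, adjusted p = 0.00212) is a lasting call. Alx1, an aristaless factor of the anterior bud, stood at 9.87, 8.51 and 7.51 CPM in wild type and 15.9, 19.6 and 7.32 CPM in null hindlimbs, where replicate 3 of the null was the lowest of the 6 libraries, and its rise (0.57 ± 0.17, adjusted p = 0.0494) was not called without either library of run3982 of either genotype. Those adjusted p-values were 0.208 without wild type replicate 1, 0.0539 without wild type replicate 2, 0.0636 without null replicate 1 and 0.191 without null replicate 2.

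**Figure D4:**
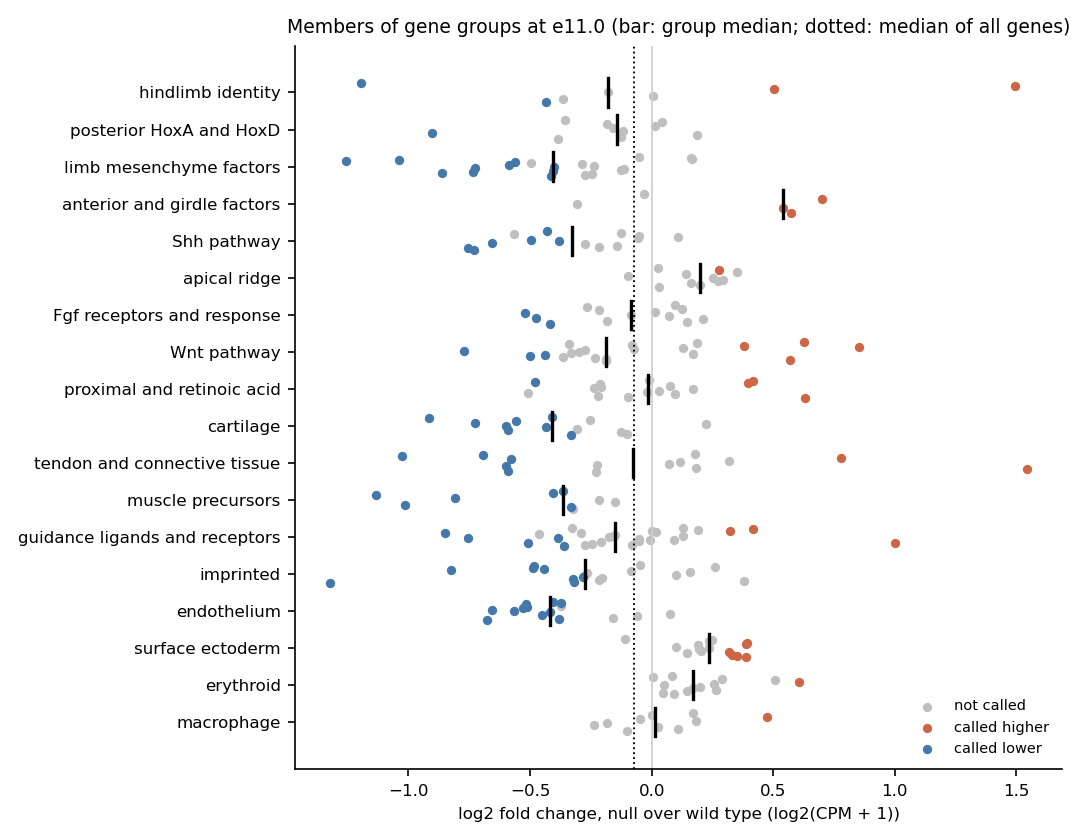
Each point is a listed gene of 18 gene groups, at its log2 fold change (null over wild type) on the horizontal axis, coloured where the adjusted p was under 0.05; the black bar is the group median and the dotted line the median of all genes, -0.07. Limb mesenchyme, cartilage, muscle precursor and endothelial genes lie mostly to the left, and surface ectoderm, ridge and anterior genes to the right.

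In the Shh pathway, which sets digit number and identity from the posterior margin, 6 of 14 genes fell and 0 rose, with a median of -0.33. The 14 include coreceptors and the repressor Gli3, so the count does not give the activity of the pathway. The count was 5, 4 and 5 under the 3 scalings and 2, 9, 2, 7, 4 and 2 with 1 library left out. The ligand Shh itself was at 5.71, 7.65 and 7.39 CPM in wild type and 6.69, 3.7 and 3.15 CPM in null hindlimbs and did not pass (-0.57 ± 0.20, adjusted p = 0.0751). Null replicates 2 and 3 were the lowest of the 6, while null replicate 1 lay within the wild type range. The coreceptors fell more evenly. Cdon stood at 135, 114 and 149 CPM in wild type and 80.2, 77.6 and 75.5 CPM in null hindlimbs (-0.76 ± 0.09, adjusted p = 0.00135), and Boc at 36.2, 31.9 and 34.8 CPM in wild type and 21.8, 19 and 20.1 CPM in null hindlimbs (-0.73 ± 0.09, adjusted p = 0.00176). Both are lasting calls with no overlap. Gli3, the pathway's main repressor in the limb, fell from 221, 167 and 188 CPM to 143, 125.9 and 97.4 CPM (-0.66 ± 0.12, adjusted p = 0.0106, and 0.0959 without wild type replicate 1, 0.0811 without wild type replicate 3 and 0.0818 without null replicate 3). Hand2, a posterior factor upstream of Shh, was lower by 0.49 ± 0.08 in log2 units (adjusted p = 0.00729, and 0.0637 without wild type replicate 1, 0.0676 without wild type replicate 3 and 0.0674 without null replicate 3). Sufu was lower on deposited CPM (-0.43 ± 0.12, adjusted p = 0.0433) and was not held under scaling.

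No gene of the apical ridge, the Fgf source at the tip of the bud, was called lower. Fgf8, the main ridge Fgf, stood at 43.4, 54.9 and 112 CPM in wild type and 60.8, 57.9 and 129 CPM in null hindlimbs and did not pass (0.25 ± 0.09, adjusted p = 0.0748; 0.0416 after trimmed-mean scaling and 0.0381 with the block), with replicate 3 high in both genotypes. Sp8 passed (0.28 ± 0.08, adjusted p = 0.046), with adjusted p of 0.19 without wild type replicate 1, 0.145 without wild type replicate 3, 0.138 without null replicate 1, 0.155 without null replicate 2 and 0.147 without null replicate 3, and it was the only 1 of 11 ridge genes called on the deposited CPM. After the 3 scalings 3, 3 and 2 ridge genes were higher. Wnt7a, the dorsal ectoderm signal upstream of Lmx1b, stood at 19, 21.9 and 41.2 CPM in wild type and 33.9, 28.8 and 67.2 CPM in null hindlimbs. In both runs the null libraries were above the wild type ones of that run, and the rise (0.63 ± 0.09, adjusted p = 0.0044) is a lasting call, although the groups overlapped across runs. In the mesenchyme, Fgf10 did not pass (0.21 ± 0.12, adjusted p = 0.208), and Dusp6, a readout of Fgf signalling, fell by 0.42 ± 0.07 in log2 units (adjusted p = 0.00852, and 0.0631 without wild type replicate 1 and 0.0688 without null replicate 2). None of 14 Bmp genes passed by limma, and after each of the 3 scalings 2 were higher.

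Wnt genes were called in both directions, 4 higher and 3 lower of 20, beside 4.73% and 8.41% of all genes. With 1 library left out 1, 6, 3, 2, 1 and 3 were higher and 0, 9, 0, 4, 1 and 0 lower. Wnt2 stood at 6.38, 4.89 and 10.2 CPM in wild type and 10.8, 18.4 and 11.51 CPM in null hindlimbs (0.85 ± 0.22, adjusted p = 0.036), with an adjusted p of 0.171 without wild type replicate 1 and 0.111 without null replicate 2. Dkk1, a secreted inhibitor of Wnt, stood at 9.97, 12.4 and 13.2 CPM in wild type and 20.4, 19.1 and 14.9 CPM in null hindlimbs (0.57 ± 0.13, adjusted p = 0.0271), with 0.14 without wild type replicate 1, 0.0531 without null replicate 1 and 0.102 without null replicate 2. Rspo4, which strengthens Wnt signalling, stood at 7.15, 7.08 and 6.72 CPM in wild type and 4.78, 4.29 and 2.33 CPM in null hindlimbs (-0.77 ± 0.14, adjusted p = 0.0119), with 0.0717 without wild type replicate 1, 0.0846 without wild type replicate 3 and 0.0801 without null replicate 3. In none of the 3 did the genotypes overlap. Nkd1 and Nkd2, feedback inhibitors induced by Wnt, were lower (-0.50 ± 0.09 and -0.44 ± 0.08). These calls were made under each scaling, and those of Nkd1 and Nkd2 were each made in 2 of the 6 fits with 1 library left out.

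Of 16 genes for retinoic acid, the proximal signal, and other proximal factors, 3 were higher and 1 lower, beside 4.73% and 8.41% of all genes. With 1 library left out 0, 3, 2, 3, 0 and 2 were higher and 0, 5, 1, 2, 0 and 1 lower. Aldh1a2, the enzyme that makes retinoic acid, stood at 23.3, 25.6 and 21.7 CPM in wild type and 40.3, 54.8 and 22.6 CPM in null hindlimbs (0.63 ± 0.16, adjusted p = 0.0356). Nearly all of the rise lay in replicates 1 and 2, and null replicate 3 was within the wild type range. Rdh10, which supplies the substrate of Aldh1a2, stood at 29.97, 29.9 and 29.9 CPM in wild type and 42.5, 45.4 and 33.7 CPM in null hindlimbs (0.42 ± 0.09, adjusted p = 0.0222). The adjusted p of Aldh1a2 was 0.192 without wild type replicate 1 and 0.128 without null replicate 2, and that of Rdh10 0.129 without wild type replicate 1 and 0.115 without null replicate 2. Meis1, the proximal marker, did not pass (-0.02 ± 0.07, adjusted p = 0.876), and its sign was positive after each of the 3 scalings.

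Genes of the condensing cartilage fell together: 8 of 13 were lower and 0 higher, with a median of -0.41, and 7, 6 and 7 under the 3 scalings. With 1 library left out the count was 3, 8, 4, 5, 3 and 4. Sox9, the master regulator of cartilage, stood at 26.3, 21.6 and 29.7 CPM in wild type and 11.6, 13.1 and 14.9 CPM in null hindlimbs (-0.92 ± 0.10, adjusted p = 0.000859). Its partner Sox5 stood at 25.3, 25.9 and 22.9 CPM in wild type and 16.8, 18 and 14.7 CPM in null hindlimbs (-0.56 ± 0.08, adjusted p = 0.00483), and the cartilage collagen gene Col9a1 at 58.8, 70.4 and 60.7 CPM in wild type and 41.2, 45.5 and 38.1 CPM in null hindlimbs (-0.59 ± 0.09, adjusted p = 0.00447). All 3 are lasting calls, with every null library below every wild type one. Acan, Comp, Matn1, Matn4, Ihh, Runx3 and Nkx3-2, which mark later or other stages of the skeleton, were not among the listed genes. Gdf5 of the joints and Runx2 of bone were lower as well (-0.60 ± 0.14 and -0.72 ± 0.20), at levels of at most 2.99 CPM in any library, with a highest adjusted p of 0.166 and 0.248 when 1 library was left out.

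Of 14 tendon and connective tissue genes 5 fell and 2 rose, under each scaling too, and with 1 library left out 3, 6, 3, 5, 4 and 3 fell. Scx, the tendon progenitor factor, stood at 25.5, 27.6 and 22.5 CPM in wild type and 11.4, 10.6 and 13.6 CPM in null hindlimbs (-1.03 ± 0.11, adjusted p = 0.00103). Tcf7l2, known as a marker of muscle connective tissue besides its role in Wnt signalling, stood at 17.7, 15.9 and 19.5 CPM in wild type and 10.2, 8.92 and 12.8 CPM in null hindlimbs (-0.69 ± 0.10, adjusted p = 0.00406). Both are lasting calls with no overlap. Col1a2, a chain of fibrillar collagen, fell from 258, 209 and 353 CPM to 169, 167 and 193 CPM (-0.60 ± 0.10, adjusted p = 0.00852, and 0.0812 without wild type replicate 1, 0.0661 without wild type replicate 3 and 0.0671 without null replicate 3). The matrix genes Col14a1, given above, and Postn (0.78 ± 0.12, with an adjusted p of 0.00586 and of 0.0572 without wild type replicate 1) rose. Postn stood at 7.71, 8.86 and 11.6 CPM in wild type and 15.1, 18.2 and 16.6 CPM in null hindlimbs. Across the 33 listed collagen genes, a family picked after the values were seen, 10 were lower and 1, Col14a1, higher, beside 8.41% and 4.73% of all genes. Under the 3 scalings 7, 5 and 7 were lower and 1, 2 and 1 higher, and with 1 library left out 2, 18, 2, 7, 4 and 2 were lower. Lama2, the laminin chain of muscle basement membrane, fell from 18, 14.8 and 14.7 CPM to 6.32, 7.94 and 5.89 CPM (-1.13 ± 0.12, adjusted p = 0.000536).

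Muscle precursors enter the bud from the somites, and 6 of 9 listed genes of theirs fell and 0 rose, 5 under each scaling, with a median of -0.36. With 1 library left out the count was 2, 7, 1, 5, 3 and 1. Pax3, which marks the migrating precursors, stood at 14.2, 11.7 and 9.96 CPM in wild type and 5.74, 6.51 and 2.97 CPM in null hindlimbs (-1.13 ± 0.13, adjusted p = 0.00128). Lbx1, which they need to migrate, stood at 10.7, 7.36 and 8.47 CPM in wild type and 4.78, 5.52 and 1.99 CPM in null hindlimbs (-1.01 ± 0.19, adjusted p = 0.0141), and Myf5, the first muscle determination gene, at 2.11, 2.76 and 2.24 CPM in wild type and 1.01, 1.04 and 0.725 CPM in null hindlimbs (-0.81 ± 0.13, adjusted p = 0.00714). None of these genes overlapped between genotypes, and null replicate 3 was the lowest library in each. Pax3 is a lasting call, the adjusted p of Lbx1 was 0.111 without wild type replicate 1, 0.0887 without wild type replicate 3 and 0.0833 without null replicate 3 and that of Myf5 0.068 without wild type replicate 3 and 0.0661 without null replicate 3. Met (-0.22 ± 0.07) and Cxcr4 (-0.32 ± 0.12), receptors used in migration, did not pass, and Pax7, Msc, Myod1 and Myog were not listed. Cxcl12, the Cxcr4 ligand made by the mesenchyme (chr6:117168535-117181367), fell from 84.3, 67.7 and 49.1 CPM to 32.6, 32.1 and 24.1 CPM (-1.13 ± 0.09, adjusted p = 0.000173), a lasting call.

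Guidance genes, which steer axons and migrating cells, were called in both directions, 5 lower and 3 higher of 27, with 3, 3 and 4 lower and 3 higher under the scalings, beside 8.41% lower and 4.73% higher of all genes on deposited CPM. With 1 library left out 2, 11, 2, 5, 3 and 2 were lower and 0, 3, 1, 2, 1 and 1 higher. Robo2, a receptor for Slit proteins, stood at 127, 147 and 74.8 CPM in wild type and 73.2, 70.8 and 45.1 CPM in null hindlimbs (-0.85 ± 0.08, adjusted p = 0.000302). Nrp1, a receptor for semaphorins and Vegf, stood at 68.8, 55.7 and 46.2 CPM in wild type and 36.7, 36.6 and 26.5 CPM in null hindlimbs (-0.75 ± 0.09, adjusted p = 0.00128). Both are lasting calls with no overlap, and Nrp1 is also made by endothelium. Slit2, a Robo ligand, rose from 46.1, 47.2 and 44.9 CPM to 60.8, 73.4 and 53 CPM (0.42 ± 0.09, adjusted p = 0.0222, with 0.131 without wild type replicate 1, 0.0541 without wild type replicate 3, 0.115 without null replicate 2 and 0.0556 without null replicate 3). Epha3, among the largest rises, is of this group as well.

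Markers of the vessels fell and those of the covering ectoderm rose in the same libraries. Of 15 endothelial markers 11 were lower and 0 higher (median -0.42), 7, 5 and 7 under the 3 scalings, and 0, 12, 0, 8, 1 and 0 with 1 library left out. Their summed level was 276 to 376 CPM in wild type and 174 to 281 CPM in null libraries. Kdr, the main Vegf receptor, stood at 59.9, 41.8 and 45.6 CPM in wild type and 35.5, 33.3 and 23.7 CPM in null hindlimbs (-0.66 ± 0.13, adjusted p = 0.0147), and Cdh5, the endothelial cadherin, at 46.6, 36.4 and 36.3 CPM in wild type and 33.1, 27.3 and 15.9 CPM in null hindlimbs (-0.68 ± 0.15, adjusted p = 0.0214). Every null library was below every wild type one for both, yet without single libraries the adjusted p of Kdr was 0.113 without wild type replicate 1, 0.112 without wild type replicate 3 and 0.112 without null replicate 3 and that of Cdh5 reached 0.134. Of 15 surface ectoderm markers 6 were higher and 0 lower (median 0.23), 7 under each scaling, and 0, 13, 0, 1, 0 and 0 with 1 library left out. Their summed level was 410.5 to 1063 CPM in wild type and 548 to 1239.8 CPM in null libraries, and replicate 3 was the highest library of each genotype. Krt5, a basal keratin, stood at 29.4, 36.5 and 98.8 CPM in wild type and 48.1, 43.4 and 117 CPM in null hindlimbs (0.39 ± 0.10, adjusted p = 0.0293, up to 0.135 with 1 library left out).

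Blood and other markers gave few calls. The erythroid sum was 4942 to 11408 CPM in wild type and 6235 to 17989 CPM in null libraries, and 1 of 13, Hbb-bs, was higher, with 0, 10, 0, 1, 0 and 0 higher when 1 library was left out. Of 10 macrophage markers 1, Pf4, was higher, with a call in 2 of the 6 fits, of 6 nerve and Schwann markers none passed by limma, and Fcer1g, Adgre1, Sox10, Foxd3, Elavl3 and Prph were not listed. Meox1, a somite gene and 1 of the 2 listed trunk markers, rose from 13.4, 15.1 and 17.1 CPM to 19.3, 23.5 and 27.3 CPM (0.58 ± 0.10, adjusted p = 0.00901, up to 0.0783 with 1 library left out), while Tcf15 did not pass (-0.10 ± 0.11). The endothelial decline had the direction of the mesenchymal, cartilage and muscle falls, and the ectoderm rise that of Sp8 and Wnt7a. Replicate 3 was the lowest library of both genotypes in the endothelial, mesenchyme and muscle precursor sums, and the highest in the cartilage sum. It was also the highest of both genotypes in the ectoderm sum, Sp8 and Wnt7a. Whether these groups varied together across libraries was not tested, nor was the part of cell makeup in these results. Cell cycle genes showed little: 2 of 21 were higher and 1 lower, beside 4.73% and 8.41% of all genes. Mki67 failed the test (-0.23 ± 0.07, adjusted p = 0.053, but 0.0377 under the block), and none of 12 hypoxia and glycolysis genes passed by limma.

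Imprinted genes were lower in 8 of 18 cases and higher in 0, with a median of -0.27; 5 were lower under each scaling, while 1, 2 and 1 were higher, and 1, 11, 2, 5, 2 and 2 were lower with 1 library left out. Among the called genes, 3 lie within a stretch of chromosome 6. Peg10 (chr6:4747306-4760517), a retrotransposon-derived gene of growth, stood at 561, 417 and 603 CPM in wild type and 296, 309 and 276 CPM in null hindlimbs (-0.83 ± 0.12, adjusted p = 0.00404, and 0.0508 without wild type replicate 1). Sgce (chr6:4674350-4747207), its neighbour, fell by 0.49 ± 0.09 on the log2 scale with a call in 2 of the 6 fits, and Asb4, given above, is the third. H19, an abundant noncoding RNA, did not pass (-0.20 ± 0.10, adjusted p = 0.156). Lin28a, a regulator of developmental timing, fell from 77.9, 54.8 and 54.3 CPM to 33.4, 38.2 and 43.1 CPM (-0.68 ± 0.14, adjusted p = 0.0175, and 0.0789 without wild type replicate 1 and 0.0583 without null replicate 2).

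The e11.5 hindlimbs are other embryos, sequenced from mRNA-enriched libraries, and the difference between stages was not tested. At e11.5, 1455 of 13478 genes (10.8%) were called by the same model, 382 higher (2.83%) and 1073 lower (7.96%). Of the 1843 genes called at e11.0, 1794 were listed at e11.5, 1610 (89.7%) had the same sign, beside 64.7% of all genes listed at both stages, and 464 were called there with the same sign. Of the 40 genes that changed by at least 1 log2 unit at e11.0, 36 were listed, all 36 kept their sign, and 29 were called. Called again at e11.5 were the falls of Tbx4 (-1.23 ± 0.05, adjusted p = 1.01e-05), Scx (-0.91 ± 0.16, adjusted p = 0.00872), Sox9 (-0.96 ± 0.15, adjusted p = 0.00551) and Tbx18 (-0.99 ± 0.12, adjusted p = 0.00181). Values closer to 0 than at e11.0 were read for Rxfp1 (0.37 ± 0.16, adjusted p = 0.156), Epha3 (0.41 ± 0.16, adjusted p = 0.135) and Lhx9 (-0.03 ± 0.08, adjusted p = 0.849), none of them called. Among 13 cartilage genes 11 were lower at e11.5, and among 15 endothelial genes 2 were.

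Another 10 genes called at e11.0 were called in the opposite direction at e11.5. Of these, Grem1, a Bmp antagonist of the distal mesenchyme, was lower at e11.0 (-0.38 ± 0.09) and higher at e11.5 (0.40 ± 0.05, adjusted p = 0.00364), and Msx1 likewise (-0.40 ± 0.10, then 0.30 ± 0.05, adjusted p = 0.0113). Neither was held under scaling at e11.0. Aldh1a2 was higher at e11.0 (0.63 ± 0.16) and lower at e11.5 (-1.06 ± 0.25, adjusted p = 0.0298). C130021I20Rik, the antisense gene of Lmx1b, went from -0.82 to 0.19. The others were Mogat2, Tln2, Gpt2, Mcrs1, Sema3c and Pf4, and these 6, Grem1 and Msx1 were each called at e11.0 in 1 or 2 of the 6 fits with 1 library left out.

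**Figure D5:**
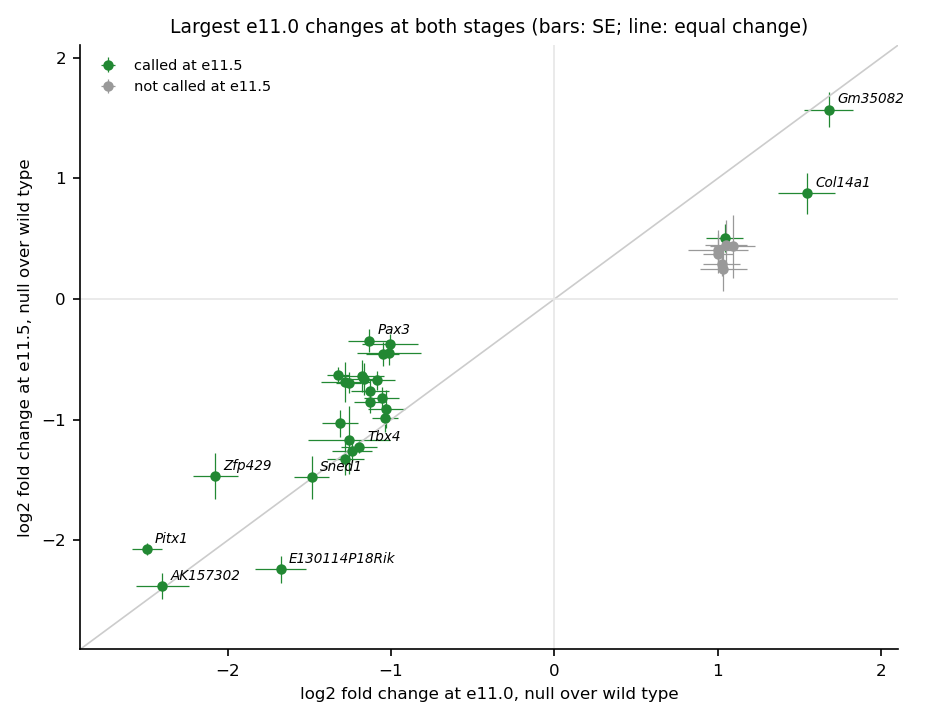
Each point is 1 of 34 of the 36 genes that changed by at least 1 log2 unit at e11.0 and are listed at e11.5, with the log2 fold change (null over wild type) at e11.0 on the horizontal and at e11.5 on the vertical axis, bars of 1 SE, and a grey line of equal change. All points lie in the lower left or upper right quadrant.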

How the data were processed

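RNA of hindlimb buds was measured by ribosomal depletion and stranded libraries, per the labels. Total RNA came from timed breedings by spin column, per the labels' protocols. Reads were aligned with STAR and counted with featureCounts on GRCm38 (mm10), and edgeR is also named, per the submitters' processing notes. No versions or settings are named in the labels or file headers. The authors deposited each library as CPM, with every listed gene over 0.5 CPM in at least 3 libraries. The authors' deposited log2 fold change and log2 average, a likelihood-ratio score, a p-value and an adjusted p-value stand beside it, per the file headers. Values were whole multiples of 1 read within 0.01 read, which gave the depths, and these speak of counting error only, as reads carry no molecular identifiers.

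The CPM were fitted as log2(CPM + 1) with limma 3.58.1 (R 4.3.3), a mean-dependent prior, and terms for genotype and run, leaving 3 residual degrees of freedom. Each test was two-sided, Benjamini-Hochberg adjusted over 14027 genes, at a threshold of 0.05. Values after a ± beside a fold change are standard errors, and log2(CPM + 1) understates changes of low genes. The tables hold CPM, and a stricter check that takes the step from each library's lowest values did not find whole reads in every library, so the planned count test was not used. GENCODE release M 21 matched 13998 gene identifiers and gave coordinates, and 19 symbols that had become dates were taken by identifier.

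Deviations of same-numbered null and wild type libraries from their group means correlated across genes at 0.66, 0.64 and 0.86 for replicates 1, 2 and 3. Unlike-numbered libraries of run3982 correlated at 0.53 and 0.41, so the shared run is part of this for all 3 numbers. The deviations are taken from means of 3 libraries, so these values are not independent. The labels do not say that same-numbered libraries are paired beyond the run.

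Members, the 27 gene lists and tests were chosen with earlier results of these data known. The text names Pitx1, the 12 highest and 12 lowest fold changes among calls without overlap that were held under 3 scalings, and per list the first gene and up to 5 called genes of largest change. Other named genes, gene families, the promoter search and the CD1 and e11.5 name lists were picked after the values were seen. Some genes are counted in totals but not reported here. Alternatives covered scaling, pseudocount, low-level filter, run term, trend, block and left-out libraries.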

Additional observations from a re-analysis of the deposited data

Results flagged for a closer look

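Il17rd and Pf4 had groups without overlap in opposite directions at the 2 stages, and the difference between stages was not tested. Il17rd, an inhibitor of Fgf signalling, was lower in null hindlimbs at e11.0 (-0.52, limma adjusted p = 0.033) and at 0.1391 on the log2 scale at e11.5 (adjusted p = 0.0967). Its e11.0 call was lost under at least 1 of the 3 scalings. Pf4, a platelet and macrophage chemokine, was higher at e11.0 (0.48, adjusted p = 0.0348) and lower at e11.5 (-0.4844, adjusted p = 0.00975).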

How the results depend on the processing

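On deposited CPM 1843 genes were called, 664 higher and 1179 lower, 40 of them by at least 1 log2 unit. Without the run term 5 were called (1 higher, 4 lower, 5 by at least 1), and without the mean trend 574 (206 and 368). With replicates 1 and 2 alone there were 199. Trimmed-mean scaling gave 1067 higher and 520 lower, and median-ratio scaling 1326 and 403, and upper-quartile scaling left 567 lower. With the replicate block 3442 were called (1056 and 2386), of which 2699 of 3351 listed at e11.5 (80.5%) had the same sign there, against 1610 of 1794 (89.7%) without it, and the block with trimmed-mean scaling, chosen after seeing the data, gave 1534 higher. The authors' deposited adjusted p called 2895 (1707 higher), 91 by at least 1, and pseudocounts of 0.25 and 4 gave 69 and 12 by at least 1. Leaving out 1 library gave 116 to 5273 calls, 39 to 1748 higher, 77 to 3525 lower and 31 to 54 by at least 1, the fewest without wild type replicate 1 (116) and the most without wild type replicate 2 (5273). The cause was not tested. The counts of e11.0 calls with the same sign at e11.5 and among CD1 differences stayed within 1.5 times under the scalings.

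Values of genes that were not called changed sign. The log2 fold change of Meis1 went from -0.02 to 0.04977, 0.07933 and 0.04695 after trimmed-mean, median-ratio and upper-quartile scaling, 0.001563 without globin and abundant noncoding genes, 0.04977 with block and scaling, 0.05056 in the authors' deposited table, and -0.06604 to 0.03096 with 1 library left out. The log2 fold change of Vegfa went from -0.02 to 0.04464, 0.07363 and 0.04185 after the scalings, 0.04464 with block and scaling, 0.04672 in the authors' deposited table and -0.06693 to 0.02066 with 1 library left out. The log2 fold change of Xist went from -0.38 to between -2.07 and 1.41 with 1 library left out. Over the named genes 1647 values kept direction and side of the threshold, 399 lost and 16 gained the call, and 18 changed sign. The planned edgeR test on recovered reads was not run.

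Only 3 libraries per genotype, from 2 runs, limit precision. Genes under 0.5 CPM were not analysed here, and 1 read was worth at most 0.0575 CPM.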

Other observations

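Gene families picked after the values were seen add groups of small rises. Of 80 cytosolic ribosomal protein genes 35 rose and 0 fell by limma (4.73% of all genes rose), with a median log2 fold change of 0.24, and 53, 55 and 47 rose under trimmed-mean, median-ratio and upper-quartile scaling. Leaving out wild type replicates 1, 2 and 3 and null replicates 1, 2 and 3 in turn gave 1, 59, 1, 4, 2 and 1. Their summed level was 44592 to 51667 CPM in wild type and 53657 to 62577 CPM in null libraries, so the groups did not overlap. Of 87 nuclear genes of the respiratory chain 14 rose and 0 fell, of 64 clustered histone genes 6 and 0, and of 44 small nucleolar RNAs 9 and 0. With 1 library left out in the same order the rises were 0, 44, 0, 3, 1 and 0 for the respiratory chain, 0, 31, 0, 0, 0 and 0 for histones and 0, 19, 0, 3, 0 and 0 for small nucleolar RNAs. Under the 3 scalings they were 27, 34 and 25 for the respiratory chain, 16, 22 and 15 for histones and 10, 12 and 10 for small nucleolar RNAs. At e11.5, 4 of the 80 ribosomal protein genes rose.

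All 8 listed HoxB genes, known for patterning more anterior body levels, had positive fold changes of 0.20 to 0.77, of which Hoxb2 and Hoxb4 passed the test, and 3 passed after each of the 3 scalings. Hoxb4 was called in 1 of the 6 fits with 1 library left out, and the count of HoxB calls was 1 in each of these fits except 4 without wild type replicate 2. At e11.5, 5 of the 8 rose.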
